A study of Mus musculus with 10 samples.

Results

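The 34 genes described here encode subunits of the proteasome and were taken by symbol. They comprised 7 α ring genes (Psma1 to Psma7), 10 β ring genes (Psmb1 to Psmb10), 6 ATPase genes (Psmc1 to Psmc6) and 11 non-ATPase genes of the regulatory particle (Psmd1, Psmd2, Psmd3, Psmd4, Psmd6, Psmd7, Psmd8, Psmd11, Psmd12, Psmd13 and Psmd14). They were 34 of the 53379 genes counted in each library, and all 34 were among the 19754 genes that passed the filter on low counts and were tested.

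The proteasome degrades proteins that carry ubiquitin chains. Its core particle is a barrel of stacked α and β rings with the proteolytic sites on 3 of the β subunits, and its regulatory particle has a base, which unfolds substrates with a ring of ATPases, and a lid, which removes the ubiquitin. The constitutive subunits assemble in fixed proportions, and in neurons the proteasome turns over proteins at synapses. In interferon-exposed and immune cells, Psmb8, Psmb9 and Psmb10 replace the constitutive catalytic subunits Psmb5, Psmb6 and Psmb7, giving the immunoproteasome.

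RNA was sequenced from hippocampal material of 5-week-old male mice sorted for EYFP, which the study describes as cells in one place and as nuclei in another. A viral pair, AAV9-TRE-ChR2-EYFP with AAV9-c-Fos-tTA, placed the tag under the c-Fos promoter, so that it marks cells active while doxycycline is withdrawn. The 2 aversive libraries (neg, replicates 1 and 3) followed 4 foot shocks of 1.5 mA and 2 s. The 2 appetitive libraries (pos) followed 1 h with a female by the labels, or 2 h by the methods, the 3 neutral libraries (neu) exposure to the conditioning cage alone, and the 3 mock libraries, an untagged control, came from males kept in the home cage. The sources give 8 mice pooled for a condition and, for mock, 2 mice. They do not say whether libraries of 1 group came from separate pools, so p-values measure the spread between libraries, which may be technical. Neutral libraries were made with a different kit and read on another instrument, so a difference from neutral cannot be told apart from a difference in kit.

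Total counts were 16968588 to 67650693 per library, and 3 counts, the smallest level taken as detectable, stood for 0.0346 to 0.235 CPM (counts scaled to a common total, here with TMM normalization). Counts have no molecular identifiers, so this floor covers counting error only. Appetitive replicate 1 stood apart: 56.6% of tested genes had 3 counts or fewer there, against 48.9% in the other appetitive library and 2.09 to 39.6% in the rest. Markers of glia and other cells outweighed those of neurons in every library. The 8 neuronal markers took 0.00754 to 0.0628% of counts, while 6 oligodendrocyte markers took 0.923 to 38.5%, the highest share in appetitive replicate 1. In the tagged libraries, neuronal Snap25 had 1310 to 8433 counts (2255 to 3406 in mock), Neurod6 0 to 14 (39 to 182) and Rbfox3 2 to 797 (58 to 384). These counts are not scaled to library totals. In CPM, the 8 neuronal markers summed to 186.2 to 360 in mock and 571 and 492.7 in aversive libraries. The sums were 733.7 and 166.9 in appetitive and 65.5 to 71.4 in neutral libraries. The 4 choroid plexus markers took 2.77 to 14% in neutral libraries and 0.0407 to 1.01% in the others. In such bulk material, fewer cells of a type and less RNA per cell cannot be told apart.

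No proteasome subunit was missing from any library. In none of the 340 combinations of 34 subunits and 10 libraries were there 3 counts or fewer, and 3 combinations had under 10 counts. These were Psmd13 (4 counts) and Psmb9 (6 counts) in appetitive replicate 1 and Psmb9 (6 counts) in neutral replicate 1. Of the 9108 tested genes whose mean level lay between the lowest and highest of the 34 subunits, the share at 3 counts or fewer was 29.9 and 21.2% in the appetitive, 10.8 and 2.6% in the aversive, 1.62 to 4.84% in the neutral and 0.022 to 0.362% in the mock libraries. Subunit genes took 0.246 to 0.62% of all counts. Their summed level was 2892 ± 679 CPM in mock (SD, n = 3), 3559 ± 887 in aversive (n = 2), 5558 ± 62.5 in appetitive (n = 2) and 4502 ± 208 in neutral libraries (n = 3).

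Constitutive subunits stayed within 4-fold of their mock proportions, except for 4 subunits in the appetitive libraries. For each subunit, 0.5 was added to its CPM in every library. This level was divided by its mean in the mock libraries, taken on the log2 scale (for a mock library, the other mock libraries). The ratio was then divided by its median over the 31 constitutive subunits. In mock, aversive and neutral libraries, 0 of 31 constitutive subunits were more than 4-fold off. In aversive replicate 3, however, Psmd2 was at this limit (-2.0 on the log2 scale) and Psma3 was near it in the other direction (1.96). In aversive replicate 1, Psmd2 was at -1.67. In appetitive replicate 1, Psmd2 was 230-fold, Psmd13 155-fold and Psmd12 34.3-fold too low. Psmd2 and Psmd13 were at 0.782 and 0.313 CPM there, so the added 0.5 limits their folds and sets their order. In appetitive replicate 2, Psmd2 was 65.2-fold, Psmd3 4.39-fold and Psmd13 4.38-fold too low. Those were 3 of 31 subunits (9.68%) in each appetitive library, and none was more than 4-fold too high. Over the same 9108 genes of similar level, the shares more than 4-fold off were 70 and 47.4% in the appetitive, 32.1 and 27.6% in the aversive, 13.5 to 27.6% in the neutral and 2.96 to 4.49% in the mock libraries. These genes span means of 10.7 to 309 CPM, the lower end being that of the inducible Psmb9. They were not matched to the constitutive subunits within that range, and their ratios were divided by their own median. The other 28 constitutive subunits were within 4-fold in each appetitive library.

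**Figure D1:**
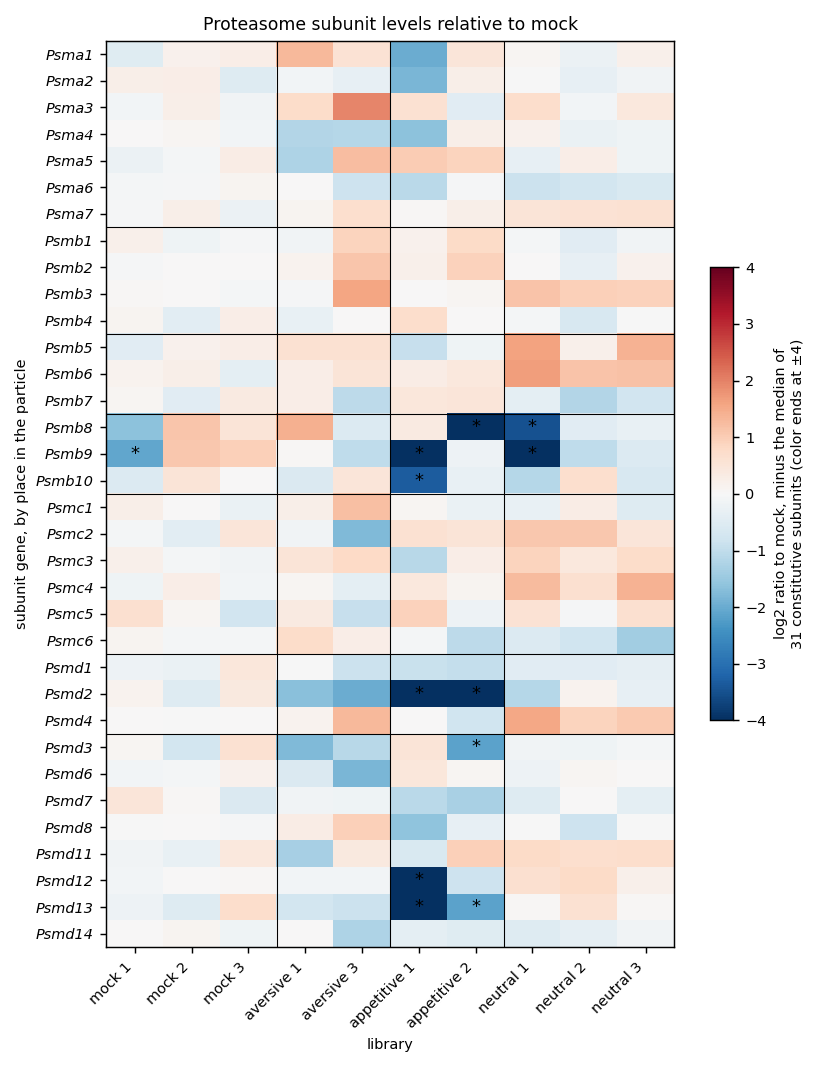
Level of each of the 34 subunit genes (rows, ordered by place in the particle) in each of the 10 libraries (columns). Values are log2 ratios to mock, with 0.5 CPM added to each level, after subtraction of the median over 31 constitutive subunits. Asterisks mark values more than 4-fold off. Constitutive subunits carry asterisks only in the 2 appetitive libraries (Psmd2, Psmd12 and Psmd13 in replicate 1, Psmd2, Psmd3 and Psmd13 in replicate 2), while of the inducible subunits Psmb9 and Psmb10 carry them in appetitive replicate 1, Psmb8 in appetitive replicate 2, Psmb9 in mock replicate 1, and Psmb8 and Psmb9 in neutral replicate 1.

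Psmd2 (chromosome 16, 20651652 to 20663414, plus strand, GRCm38) encodes the large scaffold of the base that binds ubiquitin and its shuttle factors. Its level was 133.9, 127.7 and 119.9 CPM in the mock libraries, 55.7 and 28.3 in the aversive, 0.782 and 3.51 in the appetitive and 72, 188.7 and 139.8 in the neutral libraries. Both appetitive libraries lay below every other library, with 10 and 67 counts against 1113 to 16340 elsewhere. Against neutral libraries Psmd2 fell by 5.95 on the log2 scale (SE 1.07, adjusted p = 0.0183, edgeR's quasi-likelihood test with Benjamini-Hochberg adjustment over all tested genes), and against mock by 5.88 (SE 1.07, adjusted p = 0.0317). Without appetitive replicate 1 the values were -5.36 and -5.40 (adjusted p = 0.0301 and 0.0386). The call against neutral was lost in a fit of the 2 groups alone (adjusted p = 0.0951), with the replicate number as a block (0.0634) and without neutral replicate 3 (0.0582), and the call against mock with the block (0.114) and without any 1 mock or neutral library (0.0593 to 0.0937). Psmd2 also had the most negative value of the 34 subunits in aversive libraries against mock, -1.60 (SE 0.85, adjusted p = 0.523) and no overlap of the groups. Between appetitive and aversive libraries the difference was -4.28 (SE 1.01, adjusted p = 0.0608).

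Psmd13 (chromosome 7, 140881968 to 140898643, plus strand) and Psmd12 (chromosome 11, 107479484 to 107504362, plus strand) encode scaffold subunits of the lid. Psmd13 was at 48.9, 54.5 and 59.5 CPM in mock, 45.2 and 26.5 in aversive, 0.313 and 25.1 in appetitive and 70.3, 111.9 and 77.1 in neutral libraries. Each appetitive library lay below every other one, the first by far. Psmd12 was at 68.9, 95.2 and 59.5 CPM in mock, 94.7 and 60.7 in aversive, 4.46 and 84.1 in appetitive and 143.3, 168.8 and 116.1 in neutral libraries. It was low in appetitive replicate 1, while replicate 2 lay within the mock range. The appetitive libraries thus differed 80.2-fold from each other for Psmd13 and 18.9-fold for Psmd12. Neither gene passed the test against neutral (-2.76, SE 1.36, adjusted p = 0.198, and -1.69, SE 1.03, adjusted p = 0.278). When appetitive replicate 1 alone stood for its group, both did (-8.18, adjusted p = 0.011, and -5.08, adjusted p = 0.0159). Exons of Psmd13 share 342 bases with Sirt3 on the other strand, and counting ignored strand. Psmd3, the lid scaffold low in appetitive replicate 2 (40.8 CPM), was the opposite in replicate 1 (292.8 CPM), against 80.1 to 92.8 in mock, 36.1 and 36.2 in aversive and 98.1 to 114.4 in neutral libraries.

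Other subunits of the regulatory particle were high in the same appetitive libraries. Psmd6, also of the lid, was at 245.2 and 166.6 CPM there, against 72.3, 95.4 and 66.4 in mock, 73.3 and 19.1 in aversive and 82.8, 110.2 and 106.1 in neutral libraries. Psmc2, an ATPase of the base, was at 336 and 278.9 CPM, against 90.9, 101.2 and 94.3 in mock, 121.3 and 25.1 in aversive and 252.9, 273 and 181.5 in neutral libraries. For both genes the appetitive libraries lay above all others under TMM normalization, though not with library size alone. Neither difference passed edgeR's test (appetitive against aversive, Psmd6 2.16, SE 0.821, adjusted p = 0.19, and Psmc2 2.07, SE 0.798, adjusted p = 0.193).

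**Figure D2:**
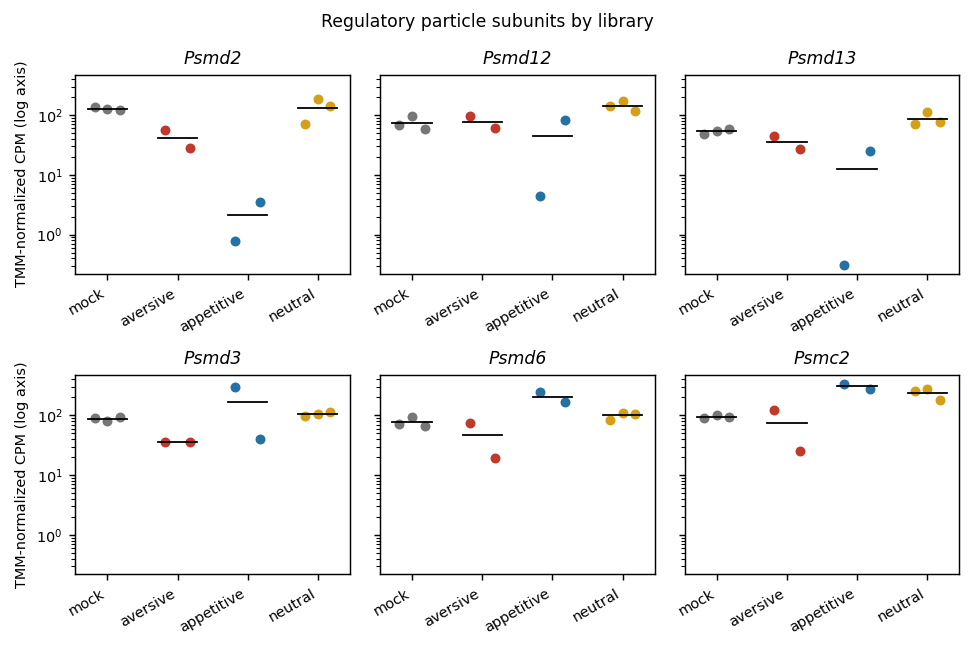
TMM-normalized CPM (log axis) of 6 regulatory particle subunits, with 1 point per library and a bar at the mean of each group of 2 or 3. Psmd2 is low in both appetitive libraries (0.782 and 3.51 CPM), Psmd12 in 1 of the 2, and Psmd6 and Psmc2 lie above all other libraries in both.

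Promoters of low and high subunits were set side by side to show what they share. RefSeq (GRCm38.p6) gave a window of 250 bases before to 50 after the start for 28 of the 34 genes. CCGGAAG, the core that ETS family factors bind, was found on either strand in 9 of the 28 windows (32.1%) and in 9.12% of the windows of 27025 genes. The 9 were Psmc1, Psmc2, Psmc6, Psmd2, Psmd4, Psmd6, Psmd11, Psmd12 and Psmd13, all of the regulatory particle. The 6 genes without a window (Psmb1, Psmb2, Psmb7, Psmc3, Psmd3 and Psmd7) were not searched. Only the first window listed for a gene was used, and Psmc2 had 2. Shown are the 90 bases before the start, 5′ to 3′ on the gene's strand, with these letters or their reverse complement in capitals, for the 3 subunits far below the mock proportion in appetitive replicate 1 (Psmd2, Psmd12, Psmd13) and for the 2 high ones described before (Psmd6, Psmc2).
Psmd2, chr16:20651562-20651651, plus strand: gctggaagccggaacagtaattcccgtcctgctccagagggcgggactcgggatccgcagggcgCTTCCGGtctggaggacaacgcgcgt
Psmd12, chr11:107479438-107479527, plus strand: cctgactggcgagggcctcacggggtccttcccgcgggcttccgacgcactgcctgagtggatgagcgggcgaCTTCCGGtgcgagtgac
Psmd13, chr7:140882304-140882393, plus strand: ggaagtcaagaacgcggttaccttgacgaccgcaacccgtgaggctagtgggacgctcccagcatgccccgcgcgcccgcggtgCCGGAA
Psmd6, chr14:14120946-14121035, minus strand: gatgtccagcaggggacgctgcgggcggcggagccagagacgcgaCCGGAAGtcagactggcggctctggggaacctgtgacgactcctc
Psmc2, chr5:21785185-21785274, plus strand: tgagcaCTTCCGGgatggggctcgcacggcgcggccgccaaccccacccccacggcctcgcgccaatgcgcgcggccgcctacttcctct
The letters began 26 bases before RefSeq's start in Psmd2, 17 in Psmd12, 6 in Psmd13 (where the last of them is the first base of RefSeq's transcript), 45 in Psmd6 and 84 in Psmc2. They were thus present in subunits that were low and in subunits that were high in the appetitive libraries. The GC box GGGCGG was in 57.1% of the subunit windows and 35.9% of all windows, CCAAT in 39.3 and 37.9%, and TGACNNNGC, the core of the antioxidant response element through which Nfe2l1 raises proteasome genes, in 14.3 and 12.5%. TTCNNNGAA, the core of the heat shock element, was in the windows of Psmb8 and Psmd2 (7.14%, against 8.47% of all). CACGTG, the E-box, was in those of Psma4 and Psmb10 (7.14%, against 7.24%). Both strands were searched for each. A match describes the sequence and was not tested for binding.

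None of the genes of the α ring, which gates the barrel, or of the structural β subunits was called in edgeR's test. The median log2 difference of the appetitive libraries from mock was 1.56 for the structural β genes and 0.75 for the α ring, against 1.18 for the base ATPases and 0.44 for the lid. Against mock, the log2 estimates for the 2 appetitive libraries together were positive for all 7 α ring genes (0.53 to 2.10), as they were under each other scaling. In appetitive replicate 1 alone, Psma1 was at 56 CPM, below its mock range of 76.1 to 132.5. Psma2 (75.6 CPM) and Psma4 (28 CPM) were there near their lowest mock levels (72.9 and 28.1 CPM). Of the 7 genes, 3 had every appetitive library above every mock library. The 4 structural β genes all had. Of all tested genes, 9.78% did, and of 36 genes of mitochondrial complex I, 69.4%. These counts and shares are under TMM normalization. With library size alone, Psmb3 and Psma7 overlapped mock. Psmb2 was at 337.4 and 500.2 CPM in the appetitive libraries, against 124, 166.7 and 101.2 in mock, 198 and 250.1 in aversive and 158.9, 136.9 and 197.1 in neutral libraries. Psmb1 was at 277.8 and 371.7 CPM, against 115.9, 125.7 and 81.7 in mock, 136.7 and 179.4 in aversive and 123.7, 104.5 and 132 in neutral libraries. Both genes were highest in the appetitive libraries without overlap under TMM normalization, though not with library size alone. In edgeR's test their differences from mock were 1.68 (SE 0.564, adjusted p = 0.128) and 1.59 (SE 0.57, adjusted p = 0.146), not past the threshold. DESeq2's Wald test called both, with Psmb4 and Psma5, against mock and against neutral. Psma5 was the α gene with the largest difference from mock, at 61.2 and 50.7 CPM in the appetitive and 11.5, 16 and 11.6 in the mock libraries (2.10, SE 0.975, adjusted p = 0.217 in edgeR's test). Exons of Psma5 share 60 bases with an antisense gene.

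**Figure D3:**
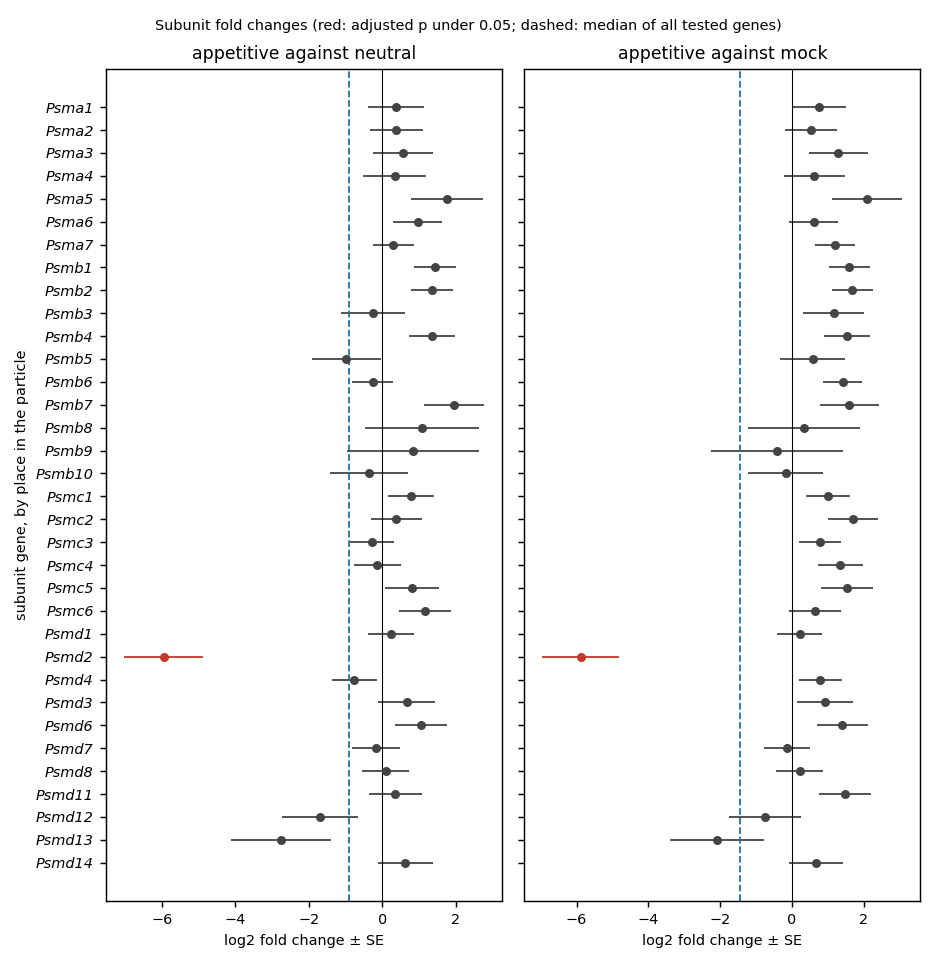
Log2 fold change with its SE for the 34 subunit genes, appetitive against neutral (left) and against mock (right), ordered by place in the particle. Psmd2, in red, is the one subunit with an adjusted p under 0.05, at -5.95 and -5.88; most others lie to the right of the dashed line, the median of all tested genes (-0.91 and -1.45).

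Counts of calls were small beside these differences. Against neutral, 1 of 34 subunits (Psmd2) was called lower and 0 higher in the appetitive libraries, where 6.17% of all tested genes were called. Against mock the count was again 1 of 34, where 1.98% of tested genes were called. Between appetitive and aversive libraries edgeR called 0 of 34, where 1.8% of tested genes were called. Here 4 subunits (11.8%) had an unadjusted p under 0.05, against 20% of all tested genes, and DESeq2's Wald test called 2, Psmd2 lower and Psmd6 higher in appetitive libraries. The median log2 difference over the 34 subunits was 0.37 from neutral, 0.79 from mock and 0.46 from aversive, and over all tested genes -0.91, -1.45 and -0.48. Subunits above the median of all genes numbered 30, 32 and 29 of 34. The first value rests on the scaling: with library size alone the medians against neutral were -0.24 for the subunits and -1.45 for all genes, and the distance between them was 1.21, compared with 1.29 under TMM normalization. Under TMM normalization, the median differences over 36 genes of mitochondrial complex I were -0.08 from neutral, 1.26 from mock and 0.32 from aversive libraries. Over 8 genes of the chaperonin TRiC they were 0.06, 0.30 and 0.61. A positive median from mock was thus not particular to the proteasome. All these comparisons share their appetitive libraries.

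Aversive libraries gave no call among the subunits. Against neutral, where 0.0405% of tested genes were called, the median was -0.23 over the subunits and -0.15 over all tested genes, and 1 subunit (2.94%) had an unadjusted p under 0.05, against 19.1% of all tested genes. This was Psmc2, with 121.3 and 25.1 CPM in the aversive and 252.9, 273 and 181.5 in the neutral libraries (-1.69, SE 0.745, adjusted p = 0.252 in edgeR's test). The highest-ranked subunit in the other direction was Psmc6, another ATPase, with 168.6 and 78 CPM in the aversive and 60.5, 54.6 and 36.9 in the neutral libraries (1.28, SE 0.712, adjusted p = 0.344). Neither pair of groups overlapped. The 2 aversive libraries differed from each other 4.83-fold for Psmc2 and 2.16-fold for Psmc6. Against mock, with 0% of tested genes called, and 0 of 34 subunits and 9.96% of tested genes at an unadjusted p under 0.05, the α subunit Psma3 ranked first among the higher genes. It was at 54.6 and 82.7 CPM in the aversive and 22, 33.4 and 17.1 in the mock libraries (1.51, SE 0.822, adjusted p = 0.528). DESeq2's Wald test and the other settings also called 0 subunits in both aversive comparisons and in neutral against mock.

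In neutral libraries 28 of 34 subunits had positive log2 differences from mock (26 with DESeq2's size factors, 29 with library size alone), with a median of 0.31 (all tested genes, 0.08), and 0 of 34 were called (0.0861% of tested genes). Unadjusted p-values were under 0.05 for 3 (8.82%), each higher in neutral, and for 13.5% of all tested genes. Psmb6 led with 565.8, 419.3 and 441.2 CPM, against 151.3, 203.1 and 93.7 in mock (1.67, SE 0.513, adjusted p = 0.184 in edgeR's test). Psmd4, a ubiquitin receptor, was at 367.2, 251.8 and 289.2 CPM against 100.6, 128.8 and 80.4 (1.55, SE 0.551, adjusted p = 0.229). In both genes every neutral library lay above every mock library. Psmc6 ranked first among the lower genes, at 60.5, 54.6 and 36.9 CPM against 75, 89.3 and 54.8, and its groups overlapped (-0.53, SE 0.647, adjusted p = 0.851).

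Of the 3 constitutive catalytic subunits, Psmb6 had the highest mean level in each group. Per kb of exon, Psmb6, the caspase-like subunit, had mean levels of 254 CPM in neutral, 212.6 in appetitive, 112.2 in aversive and 79.8 in mock libraries, above Psmb5, the chymotrypsin-like subunit (53.5, 27.1, 31.7 and 18.1), and Psmb7, the trypsin-like subunit (8.41, 32.6, 11.4 and 10.8). Psmb7 was the lowest constitutive subunit per kb in aversive replicate 3 (4.65) and neutral replicates 2 and 3 (6.39 and 8.56). By library, Psmb5 was at 12.7, 22.1 and 14.2 CPM in mock, 34.9 and 22.1 in aversive, 19.4 and 29.4 in appetitive and 61.1, 24.9 and 58.4 in neutral libraries. Every neutral library lay above every mock library, aversive replicate 3 and mock replicate 2 were level at 22.1 CPM, and the other groups overlapped. Psmb6 was at 238 and 182 CPM in the aversive and 401.6 and 394.4 in the appetitive libraries, the latter below every neutral library. Psmb7 was at 37.9, 38.4 and 34.1 CPM in mock, 62.3 and 15.9 in aversive, 117.2 and 105.9 in appetitive and 35.1, 21.9 and 29.3 in neutral libraries. The appetitive libraries were highest, without overlap (against neutral 1.96, SE 0.822, adjusted p = 0.146 in edgeR's test). Exons of Psmb7 share 405 bases with Nek6 on the other strand.

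The 3 inducible subunits varied most of the 34 between the neutral libraries, where the highest was 115-fold over the lowest for Psmb9, 12.1-fold for Psmb8 and 3.85-fold for Psmb10. In the appetitive pair, Psmb8 differed 73.9-fold, Psmb9 46-fold and Psmb10 7.48-fold, while Psmd13 differed more than any of them. Psmb8 was at 10.4, 50.1 and 23.1 CPM in mock, 88.2 and 14 in aversive, 69.7 and 0.943 in appetitive and 2.11, 22.4 and 25.7 in neutral libraries. Psmb9 was at 4.18, 25.5 and 14.6 CPM in mock, 17.3 and 4.93 in aversive, 0.469 and 21.6 in appetitive and 0.0947, 7.55 and 10.9 in neutral libraries. The appetitive libraries were thus low in different subunits, Psmb9 in replicate 1 and Psmb8 in replicate 2, and the genes lie close together on chromosome 17. Psmb10 was at 28.3, 60.8 and 29.5 CPM in mock, 34.6 and 46.5 in aversive, 8.21 and 61.4 in appetitive and 20.8, 80.1 and 32.9 in neutral libraries. Groups overlapped for all 3 genes in all 6 comparisons. Exons of Psmb9 share 212 bases with Tap1 and those of Psmb8 share 498 with an antisense gene.

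**Figure D4:**
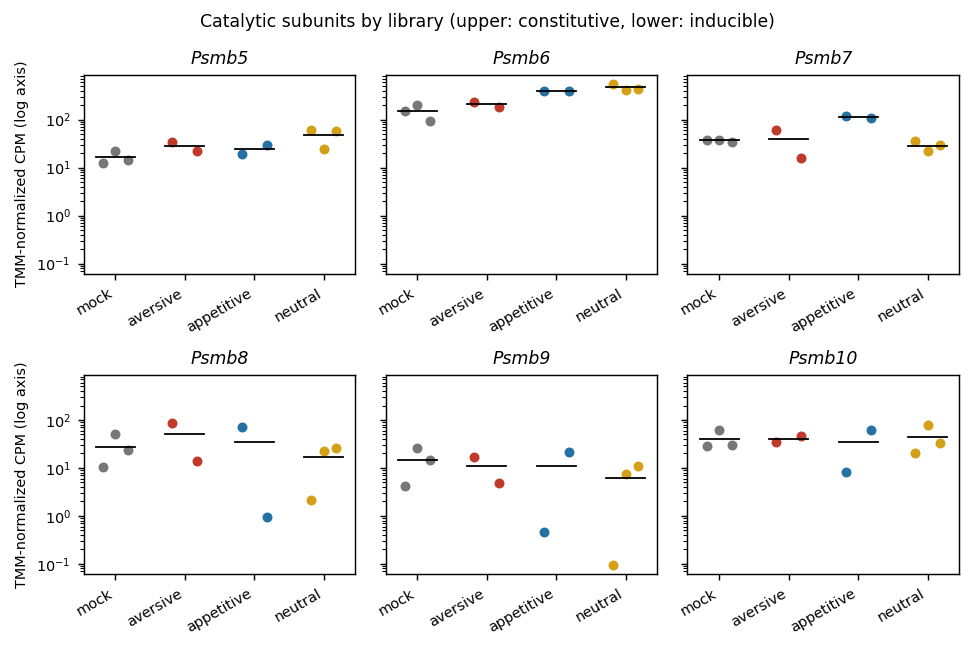
TMM-normalized CPM (log axis) of the 3 constitutive catalytic subunits (upper row) and the 3 inducible subunits that replace them (lower row), with 1 point per library and a bar at each group mean. Psmb6 ranges from 93.7 to 565.8 CPM over the 10 libraries, whereas Psmb9 ranges from 0.0947 to 25.5 and is near 0 in 1 appetitive and 1 neutral library.

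The summed level of the inducible subunits was compared with that of the constitutive catalytic subunits, both as CPM per kb. The log2 ratio was -2.35, -1.33 and -1.43 in mock, -1.85 and -1.95 in aversive, -3.40 and -2.70 in appetitive and -4.89, -2.21 and -3.37 in neutral libraries. Inducible subunits thus made up 16.4 to 28.5% of the catalytic total in mock and 3.27 to 17.7% in neutral libraries. The 4 groups did not differ past the threshold (exact permutation test of the F statistic over 25200 arrangements, p = 0.144, Benjamini-Hochberg adjusted 0.144 over 6 such tests), nor did the 7 libraries of 1 kit (exact p = 0.0952, adjusted 0.114). Without neutral replicate 2, the exact p was 0.0222. The lowest library, neutral replicate 1, also had 0 counts of the interferon response genes Isg15, Ifit1 and Ifit3 and of the endothelial marker Pecam1. Its 5 endothelial markers summed to 42.6 CPM, against 148.9 to 2371 in the other libraries, and its 6 microglial markers to 35.7, against 205.5 to 8367. Their part in the ratio was not tested.

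Within each library, the SD over the 31 constitutive subunits of log2(CPM per kb + 0.5) gauges how uneven the complex was. It was 1.17, 1.17 and 1.00 in mock, 1.46 and 1.45 in aversive, 2.21 and 1.67 in appetitive and 1.31, 1.23 and 1.31 in neutral libraries. Values of the 4 groups did not overlap, rising from mock through neutral and aversive to appetitive. The groups differed (exact permutation test of F, p = 1.59e-04, the smallest these arrangements can give, adjusted 9.52e-04 over 6 tests), also among the 7 libraries of 1 kit (exact p = 0.00952, adjusted 0.0286) and without appetitive replicate 1 (exact p = 3.97e-04). In these 7 libraries the share of tested genes at 3 counts or fewer was 2.09 to 17.2% in mock, 22.6 and 39.6% in aversive and 48.9 and 56.6% in appetitive libraries. Its part in the spread was not tested.

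The same measure over 36 genes of mitochondrial complex I, which couples NADH oxidation to proton pumping, was 1.36 to 1.89. Over 8 genes of TRiC, the chaperonin that folds actin and tubulin, it was 0.54 to 2.91. The TRiC group means rose in the same order as those of the proteasome (0.58 in mock, 0.643 in neutral, 0.77 in aversive and 1.88 in appetitive libraries), with overlap of the groups, and complex I was also lowest in mock (1.5, against 1.7 to 1.74). The proteasome lay below complex I in 8 of 10 libraries, by 0.26 on average (SD 0.26, exact sign-flip test, p = 0.0195, adjusted 0.0293). It lay above complex I in the 2 appetitive libraries. It lay above TRiC in 9 of 10 libraries, by 0.50 on average (SD 0.44, exact sign-flip test, p = 0.0156, adjusted 0.0293), and below it in appetitive replicate 1. The mock means already differed in these directions (1.11 for the proteasome, 1.5 for complex I and 0.58 for TRiC). Both sign-flip tests thus largely compare which genes were listed, and they do not gauge uneven recovery.

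**Figure D5:**
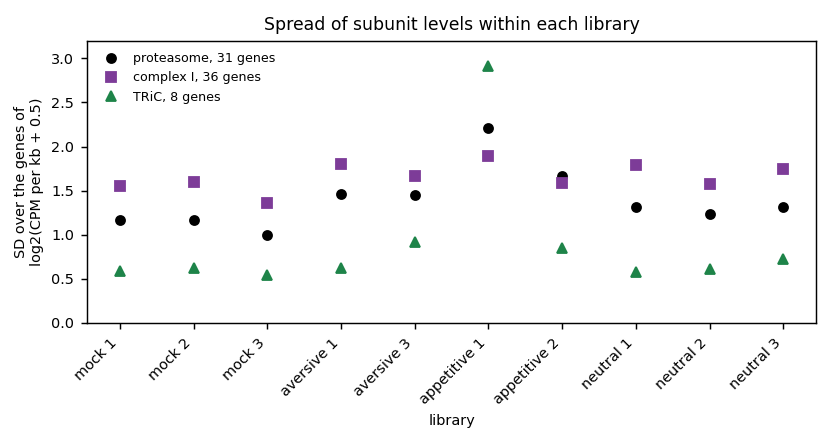
SD over genes of log2(CPM per kb + 0.5) within each library for 31 constitutive proteasome subunits, 36 complex I genes and 8 TRiC genes. The proteasome values run from 1.00 in mock replicate 3 to 2.21 in appetitive replicate 1, and the 2 appetitive libraries are the ones where they exceed those of complex I.

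Libraries of 1 group repeated each other unequally. Between libraries of a group, the median fold difference over the 34 subunits, after centring on all tested genes, was 1.31 to 1.91 in mock, 1.20 to 1.34 in neutral, 1.83 in aversive and 1.91 in appetitive pairs. More than 4-fold differences were found for 7 of 34 subunits (20.6%) between the appetitive libraries and for 0 to 2 of 34 in each of the other 7 pairs. With library size alone the appetitive count was 13 of 34 (38.2%) and the median 2.66, and with DESeq2's size factors the aversive count was 4 of 34. Over the 9108 genes of similar level, the shares were 49.6% in the appetitive, 41% in the aversive, 10.4 to 22.8% in the neutral and 5.8 to 6.48% in the mock pairs.

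Some genes that serve the proteasome without being subunits were at the floor of 3 counts. Of 31 such genes listed, 30 were matched (8 assembly chaperones, 5 activators or inhibitors, 9 associated factors, 4 ubiquitin genes and 4 regulators), and 12 of 300 combinations of gene and library had 3 counts or fewer. Of the 12, 8 were in appetitive replicate 1 (26.7% of the 30, against 29.9% of the 9108 genes of similar level to the subunits): the chaperones Psmg3, Psmg4, Psmd5 and Psmd10, the activator Psme4, the deubiquitinase Usp14, the ligase Ube3c and Ngly1. Another 2 were in replicate 2 (Ddi2 and Ngly1), and the aversive libraries had 1 each (Ngly1 and Uchl5). Mock and neutral libraries had 0. Ngly1, Ddi2 and Nfe2l1 belong to 1 pathway, in which the deglycosylase Ngly1 and the protease Ddi2 activate the transcription factor Nfe2l1 when proteasome activity is short.

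Ngly1 had 1261, 1024 and 3358 counts in mock, 3 and 810 in aversive, 2 and 2 in appetitive and 2692, 2129 and 3624 in neutral libraries. Both appetitive libraries were at the floor, as was 1 of the aversive libraries. Against the floor of 0.235 CPM, Ngly1 was at least 161-fold lower than the neutral mean of 37.9 CPM and at least 213-fold lower than the mock mean of 50 CPM. It was the 1 related gene called, against neutral (adjusted p = 0.0408 in edgeR's test), and not against mock (adjusted p = 0.0569). Without either appetitive library, or without any mock or neutral library, the adjusted p against neutral was 0.0588 to 0.0949. The median log2 difference of the 30 related genes from neutral was -0.01, with 15 above and 15 below 0. Among the other related genes, 3 that were lower in appetitive libraries without passing the test were Psme1, a subunit of the interferon-inducible activator (-3.02, SE 1.07, adjusted p = 0.0987), the ubiquitin receptor Adrm1 (-2.36, SE 1.17, adjusted p = 0.198) and Psmg3 (-3.46, SE 1.81, adjusted p = 0.217). Others were higher without passing it, among them the chaperones Psmg1 (1.76, SE 0.944, adjusted p = 0.227) and Psmd9 (1.70, SE 0.911, adjusted p = 0.226). For these chaperones the appetitive and neutral libraries overlapped.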

How the data were processed

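Groups were taken from the labels. The authors aligned 40 bp per read to mm10 (STAR) and counted reads on Ensembl GRCm38.91 genes with featureCounts, without strand. The deposited values are these raw counts, without normalization. Symbols, positions and exon lengths came from GENCODE M21 (GRCm38), which held 53274 of the 53379 identifiers. The members and all lists (related genes, complex I, TRiC, cell type markers, motifs) and tests were chosen with earlier results of these data known. No gene-set test was run on the fold changes. The 6 permutation tests compared values computed from the lists in each library, and their p-values do not allow for that choice.

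All 10 libraries were fitted in R 4.3.3 with edgeR 4.0.16 (TMM normalization with factors from 0.48 to 1.45, filterByExpr, 1 quasi-likelihood model with 4 groups, common dispersion 1.49). Two-sided p-values had Benjamini-Hochberg adjustment over 19754 genes. An adjusted p under 0.05 was called, and SEs came from the F statistics. Values in every library are given for the 6 catalytic subunits, for called subunits and, without a call, for the smallest p in each direction. Psmd12, Psmd13, Psmd3, Psmb1, Psmb2, Psma5 and Psmd4 were picked after their values were seen. Levels of different genes were compared as CPM per kb of exon, with 0.5 added before the log2. Of the members, 10 share exon bases with another gene. Single values per library were compared by exact permutation, two-sided. The other values were computed in Python 3.11.15.

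Alternatives were DESeq2 1.42.0, other scalings and filters, a fit of the 2 groups alone, the replicate block and leaving out each library. Counts were simulated for appetitive against neutral with the spread of these data but no other group differences. On them, edgeR called 32 of 189 genes changed 64-fold (16.9%), 0 of 190 changed 8-fold and 0 unchanged genes. Reads, methylation and behavior were not analysed here. For 1 related gene, the values are not reported here.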

Additional observations from a re-analysis of the deposited data

Results flagged for a closer look

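Aversive and appetitive libraries lay on opposite sides of the neutral range for 3 of the 34 subunits, all aversive libraries below it and all appetitive libraries above it (8.82%, against 0.683% of all tested genes and 1.28% of the 9108 genes of similar level). The appetitive minus aversive difference was 0.70 on the log2 scale for Psma7 (190.9 and 202 CPM in aversive, 236.8 to 276.1 in neutral, 316.7 and 319.8 in appetitive libraries). It was 2.07 for Psmc2 (adjusted p = 0.193 in edgeR's test) and 2.16 for Psmd6 (adjusted p = 0.19). Psmd6 was at 73.3 and 19.1 CPM in aversive, 82.8 to 110.2 in neutral and 166.6 and 245.2 in appetitive libraries. None of the 3 differences passed the test, and the neutral libraries differ in kit. The pattern also rests on the scaling, as appetitive replicate 1 had the lowest TMM factor (0.48). With library size alone, that library lay above the neutral range for none of the 3. The cause was not tested.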

How the results depend on the processing

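Calls among the subunits depended on the tool and the libraries. In appetitive against neutral (1 called), DESeq2's Wald test called 6, a fit of only the 2 groups 0, the fit with the replicate block 0, and leaving out 1 library gave 0 to 3. In appetitive against mock (1 called), DESeq2 called 5, the replicate block 0, and leaving out 1 library gave 0 to 3. In appetitive against aversive (0 called), no filter called 1, DESeq2 2, and leaving out 1 library gave 0 to 4. At the study's threshold (DESeq2, adjusted p under 1e-05, over 4-fold), Psmd2 was the 1 call against neutral and against mock. Psmd2 kept its sign in all settings. The settings that end its calls are given with its values. Without appetitive replicate 2, which leaves replicate 1 alone, Psmd2, Psmd12 and Psmd13 were called lower in all 3 comparisons, and Psmd3 higher against aversive. The lone library is then assumed to vary like the others.

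The median log2 difference of the subunits from neutral in appetitive libraries (0.37) became -0.24 with library size alone and -0.07 with at least 10 counts in every library, a filter that left 32 subunits. That from mock (0.79) became 0.36 under the same filter. Appetitive against aversive (0.46) ranged from 0.22 to 0.83 when 1 library was left out, the highest without aversive replicate 1. Aversive against mock (0.08) was 0.43 with the replicate block and ranged from -0.32 to 0.45, without aversive replicates 1 and 3 respectively. Subunit and library combinations at 3 counts or fewer numbered 0, those under 10 counts 3, and those at 3 or fewer after thinning each library to the smallest total 2. The exact p of the inducible ratio (0.144) ranged from 0.0222 to 0.252 when 1 library was left out. The call of Ngly1 against neutral was lost also with the 2 groups alone (0.0951) and with the block (0.115). For counts of calls and medians over the subunits, settings not named here stayed within 1.5 times or the spread between replicates. The count of subunits over 4-fold apart between the appetitive libraries (7) was 13 with library size alone, and the aversive count (2) was 4 with DESeq2's size factors. Replicate numbers did not pair the samples: deviations of same-numbered libraries correlated at -0.037 to 0.164. In the self-test, 8-fold changes were not called at this spread. It changed fewer genes (190 tested) than the 1218 called in appetitive against neutral libraries, which makes its adjusted p stricter. It therefore sets no bound on what these libraries can show.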
